A study of Mus musculus with 2 samples.

Results

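The genes described here encode receptors, adaptors and effector proteins of macrophages and other myeloid cells, 58 in all, and they were read in RNA sequencing libraries of regulatory T cells (Tregs) from adipose tissue. The members were named by symbol, and the names had been chosen with the difference between these libraries already known, so every ratio below is a description and none is a test. Of the 58 genes, 42 had a row among the 10219 genes of the deposited count table and 16 had none. The knockout animals were Hif1afl/fl;Foxp3Cre mice, and the controls were Foxp3Cre mice, all C57BL/6 and 4 months old. In the knockout, Cre recombinase made under Foxp3, the gene of the transcription factor that defines Tregs, acts on floxed Hif1a, which encodes the oxygen-regulated subunit of HIF-1. Both genotypes carry that Cre, so the control differs from the knockout by the floxed allele. Each genotype was sequenced once, and the labels give neither the number of animals behind a library nor the surface markers of the sort.

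Macrophages, monocytes and dendritic cells sense antibody, complement fragments, microbial sugars and nucleic acids through such receptors. Many of these receptors have no signalling tail of their own. They pair with the adaptors encoded by Fcer1g and Tyrobp, whose tyrosine motifs (ITAMs) recruit the kinase Syk after phosphorylation by Src kinases such as Lyn. Other receptors carry inhibitory motifs (ITIMs) that bring in phosphatases and oppose the signal. In adipose tissue, macrophages are the cells best known for this programme. T cells share some of it, such as parts of the NADPH oxidase.

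The table has a floor that decides which members could be seen. Its lowest count was 12 in the knockout sample and 14 in the control sample, and the lowest mean of both counts was 50.5, so a gene with fewer counts in either library has no row whatever its level in the other. A member with few control counts could only enter with many knockout counts, and the counts over the 42 listed members therefore do not speak for all 58. The 16 without a row were Fcgr3, C5ar1, Clec4a2, Clec12a, Csf1r, Cebpa, Cd14, Cd300lf, Msr1, Mrc1, Syk, Btk, Alox5ap, Itgam, Itgax and Adgre1, and their levels were not analysed here. Among them are the receptor for the macrophage growth factor CSF1 (Csf1r), the surface marker F4/80 (Adgre1) and the integrin chain CD11b (Itgam), which are defining markers of macrophages. Over all its genes the table sums to 11337415 counts in the knockout sample and 13472317 in the control sample.

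Nearly every listed member was higher in the knockout library. Of the 42, 38 were higher by 2-fold or more, none was lower by as much (0), and 4 lay within 2-fold. Over the whole table, 11.4% of genes were higher by 2-fold or more and 8.78% lower by as much. At 16-fold or more, 24 members were higher, beside 0.675% of all listed genes. The median log2 ratio, knockout over control on CPM (counts per 1000000, after TMM scaling for library size) plus 0.5, was 4.26 over the listed members and 0.0054 over all listed genes. Since the members were named from this same difference, these shares show only what was selected. In bulk RNA, a different number of cells of a type and a different amount of RNA per cell cannot be told apart.

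**Figure D1:**
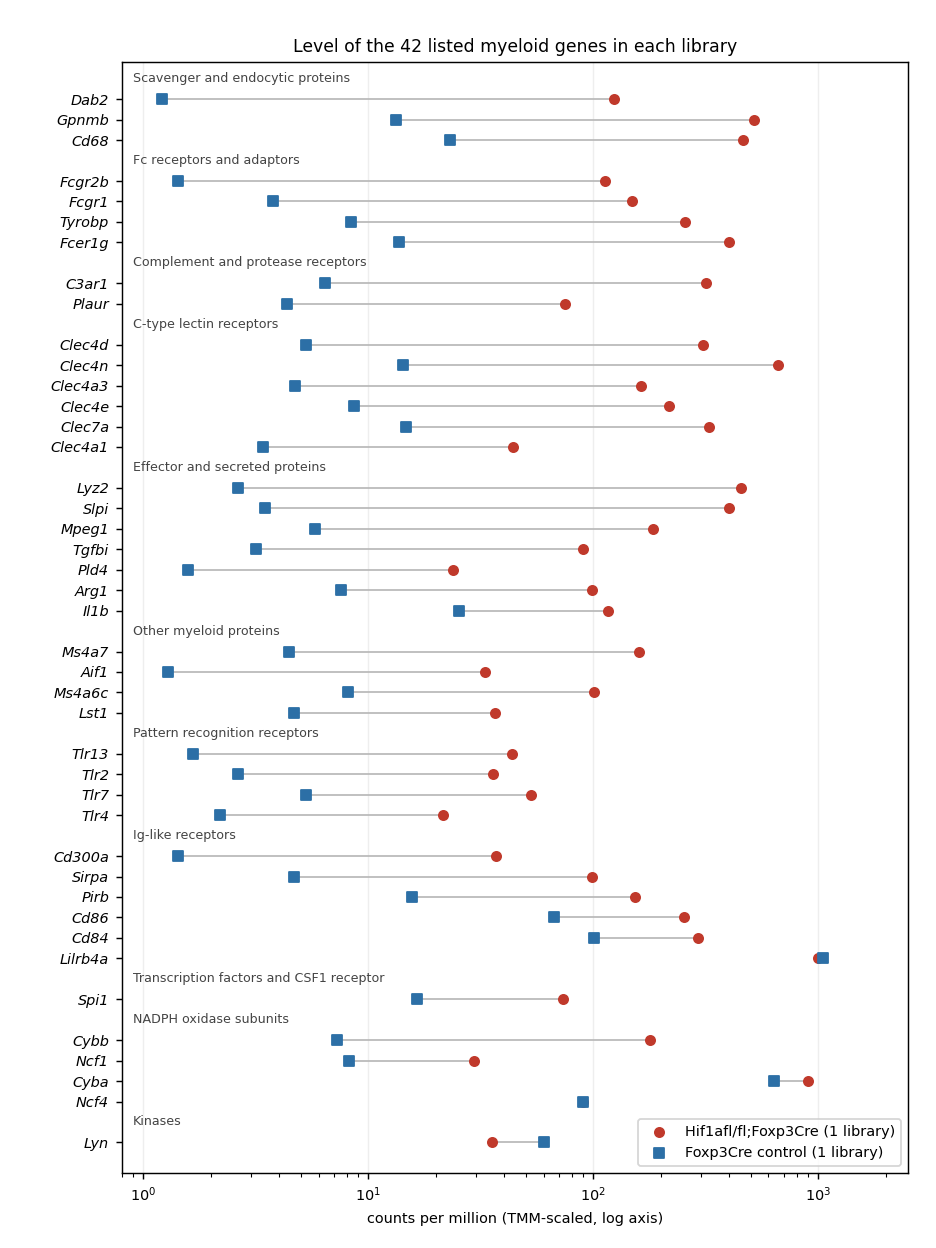
TMM-scaled level of each listed member, in CPM on a log axis, in the Hif1afl/fl;Foxp3Cre library (red circles) and the Foxp3Cre library (blue squares), grouped by role with the group of highest median ratio on top. The circle lies to the right of the square for 38 members by at least 2-fold, whereas the symbols of Lilrb4a, Cyba, Ncf4 and Lyn lie close together.

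Beside the members, the labelled cell type was checked. The 10 pan T cell markers held 50220 counts in the knockout sample and 53886 in the control sample, and all 10 were within 2-fold (median log2 ratio 0.17). All 7 Treg defining markers had a row, 0 higher by 2-fold or more, 2 lower by as much and 5 within 2-fold (median log2 ratio -0.52). Il2ra, the interleukin-2 receptor chain CD25, was at 608 CPM in the knockout sample and 4346 CPM in the control sample, 7.14-fold lower in the knockout (6.97 to 7.32, an exact 95% interval for counting error only). Foxp3 stood at 46.4 CPM in the knockout sample and 104 CPM in the control sample, 2.24-fold lower in the knockout (2.02 to 2.48). At the other end, Cd4 was 1.55-fold higher (1.46 to 1.64), and Ikzf4, a transcription factor of Tregs, had a log2 ratio of 0.05 that became -0.12 under pan T cell marker scaling. Hif1a was at 780 CPM in the knockout sample and 1273 CPM in the control sample. It was 1.63-fold lower in the knockout. The counts are per gene and not per exon, so this is a limited check of the genotype. The source of the Hif1a counts left in the knockout sample was not tested. Whether the myeloid counts came from Foxp3-expressing cells or from other cells in the sort was not tested.

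Before the values, upstream sequences of a few members are shown, because they hold a motif of a factor that is itself a member. PU.1, encoded by Spi1, binds purine-rich sites with the core GAGGAA and is known to act at many macrophage genes. RefSeq gave a start for 30 of the 42 listed members in GRCm38.p6, and the 250 bases before each start were searched on both strands. The core was present upstream of 13 of these 30 genes (43.3%), beside 25.6% of the 7567 other listed genes with a start and 25.9% of all 27025 RefSeq genes with an upstream sequence, so most of the members searched did not hold it. Capitals mark the core, which reads TTCCTC where it lies on the opposite strand. The 4 stretches shown are those of an Fc receptor, of a pair of lectins from one gene cluster and of the inhibitory receptor Pirb:
Fcgr1, chr3:96293970-96294219, minus strand: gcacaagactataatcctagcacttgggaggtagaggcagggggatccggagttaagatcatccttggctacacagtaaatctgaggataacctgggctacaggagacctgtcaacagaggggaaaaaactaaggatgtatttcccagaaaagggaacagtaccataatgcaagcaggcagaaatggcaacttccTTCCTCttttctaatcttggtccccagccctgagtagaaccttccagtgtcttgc
Clec4a1, chr6:122921598-122921847, plus strand: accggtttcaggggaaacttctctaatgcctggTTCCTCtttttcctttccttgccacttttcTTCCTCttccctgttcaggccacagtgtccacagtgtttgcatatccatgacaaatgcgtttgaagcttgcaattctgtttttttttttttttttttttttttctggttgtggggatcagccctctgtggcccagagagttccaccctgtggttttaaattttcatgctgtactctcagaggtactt
Clec4e, chr6:123289872-123290121, minus strand: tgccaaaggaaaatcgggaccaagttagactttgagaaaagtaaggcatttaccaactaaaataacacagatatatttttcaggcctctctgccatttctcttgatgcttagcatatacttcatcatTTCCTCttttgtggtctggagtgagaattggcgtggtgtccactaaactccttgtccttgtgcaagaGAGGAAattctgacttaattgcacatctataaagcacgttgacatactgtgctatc
Pirb, chr7:3720383-3720632, minus strand: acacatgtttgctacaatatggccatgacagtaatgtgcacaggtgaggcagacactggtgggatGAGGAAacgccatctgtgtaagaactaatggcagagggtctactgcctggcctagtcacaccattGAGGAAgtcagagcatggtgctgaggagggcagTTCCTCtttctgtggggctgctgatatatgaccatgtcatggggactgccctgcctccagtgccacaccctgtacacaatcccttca

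In Fcgr1 the core began 55 bases before the start, and Clec4e held copies at 123 and 56 bases. Pirb held 3, at 185, 120 and 87 bases. Lyz2, Slpi and Dab2 have the 3 largest ratios among the members: neither Lyz2 nor Slpi held the core in its window, and Dab2 held it near the far end of both of its windows, at 244 and 249 bases. Other motifs were counted in the same way. The C/EBP form TTGCNNAA was upstream of 6 of 30 members, against 8.56% of other listed genes, and the AP-1 form TGANTCA also of 6, against 5.06%. The HIF core ACGTG was upstream of 4 (13.3%), against 26.2% of the other listed genes. No 2 of these motifs overlapped in a member's window. Of 11 members without a row that had a start, 6 held the PU.1 core (54.5%), 2 the C/EBP form, 2 the AP-1 form and 0 the HIF core. Such matches are letters, not sites of binding, and the motifs were chosen with the ratios already known. The members' shares rest on 30 chosen genes, and their difference from the other listed genes was not tested.

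Fc receptors and their adaptors were among the members with high ratios, and 4 of the 5 had a row. Fcer1g, the common gamma chain that carries an ITAM, had 4580 counts (399 CPM) in the knockout sample and 182 (13.7 CPM) in the control sample. That is a fold of 29.1, with a 95% counting interval of 25.1 to 34.0. Tyrobp, the adaptor DAP12, had 2929 counts (255 CPM) in the knockout sample and 111 (8.35 CPM) in the control sample, a fold of 30.5 (25.2 to 37.2). These adaptors therefore stood in nearly the same proportion in both libraries. Per length of exon, Fcer1g was 1.19 times Tyrobp in the knockout (1.14 to 1.25) and 1.25 times in the control sample (0.983 to 1.599), and those intervals overlap. Fcgr1, the high-affinity IgG receptor, had 1706 counts in the knockout sample and 50 in the control sample, a fold of 39.5 (29.8 to 53.4). Fcgr2b, the inhibitory IgG receptor, had 1291 and 19 counts in the knockout and control samples, a fold of 78.6 (50.1 to 131). In RefSeq's gene order Fcgr2b, Fcgr4 and Fcgr3 are consecutive protein-coding genes, and only Fcgr2b of the 3 has a row.

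C-type lectins recognise sugars and lipids of microbes and dying cells. Of the 8 named, 6 had a row, and these were between 12.9-fold and 58.3-fold higher in the knockout library. Clec4n (Dectin-2, a receptor for fungal mannans that uses the gamma chain) was the most abundant lectin per length in the knockout library. It had 7590 counts (661 CPM) in the knockout sample and 190 (14.3 CPM) in the control sample, a fold of 46.2 (40.02 to 53.7). Clec4d, a partner of the glycolipid receptor Mincle, had 3527 counts in the knockout sample and 70 in the control sample, a fold of 58.3 (46.0 to 74.9). Clec4e, Mincle itself, had 2478 counts in the knockout sample and 115 in the control sample, a fold of 24.9 (20.7 to 30.3). The intervals of this pair do not overlap: per length, Clec4e was 0.226 times Clec4d in the knockout (0.215 to 0.238) and 0.529 times in the control sample (0.390 to 0.723). Clec7a, the beta-glucan receptor Dectin-1, stood at 327 CPM in the knockout sample and 14.7 CPM in the control sample. Clec4a3 had 1871 counts in the knockout sample and 63 in the control sample, and Clec4a1, a relative, had 503 in the knockout sample and 45 in the control sample.

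In RefSeq's gene order 9 Clec4 genes lie next to each other, and 5 of them have a row: Clec4a1, Clec4a3, Clec4n, Clec4d and Clec4e. All 5 were higher in the knockout library by at least 12.9-fold, whereas Necap1, the listed gene beside the cluster, was 1.41-fold higher. Clec4a1 and Clec4a3 have close relatives in this cluster, so their counts are uncertain, because the handling of reads shared between genes is not given in the sources used here.

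Receptors of the immunoglobulin superfamily gave the widest spread of the receptor groups. Cd300a, an inhibitory receptor for membrane phospholipids, had 422 counts in the knockout sample and 19 in the control sample (fold 25.7, 16.3 to 43.1). Sirpa, the receptor for the self signal CD47, had 1129 counts in the knockout sample and 62 in the control sample (fold 21.1, 16.3 to 27.7). Pirb, an inhibitory receptor for MHC class I, had 1761 counts in the knockout sample and 207 in the control sample (fold 9.84, 8.52 to 11.4). Lower ratios belonged to genes that were already well counted in the control sample. Cd86, the costimulatory ligand of CD28 and CTLA-4, stood at 254 CPM in the knockout sample and 67.0 CPM in the control sample (fold 3.79, 3.51 to 4.09). Cd84, a SLAM-family receptor that T cells also carry, stood at 290 CPM in the knockout sample and 101 CPM in the control sample (fold 2.89, 2.71 to 3.08).

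Lilrb4a, which encodes an ITIM-bearing receptor, stood apart from the rest. It had 11442 counts (996 CPM) in the knockout sample and 13919 (1047 CPM) in the control sample. Its log2 ratio was -0.07, with a fold of 0.951 knockout over control (0.928 to 0.975), although per length it was the second most abundant listed member in both libraries. The near-identical neighbour Lilr4b, which is no member, had 9063 counts in the knockout sample and 11929 in the control sample. In GENCODE M21, exons of other gene entries cover 98.9% of the exon length of Lilrb4a. These entries are Lilr4b and a further one also named Lilrb4a, on the same strand, and Gm40645 on the opposite strand. The share of each was not separated, and the counts of Lilrb4a and Lilr4b cannot be assigned with certainty.

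Scavenger and endocytic genes had high ratios in the 3 of 5 with a row. Dab2, a clathrin adaptor, had 1422 counts in the knockout sample and 16 in the control sample, a fold of 102.8 whose interval is wide (63.1 to 180). Gpnmb, a glycoprotein of lipid-laden macrophages, had 5929 counts (516 CPM) in the knockout sample and 176 (13.2 CPM) in the control sample (fold 39.0, 33.5 to 45.5). Cd68, the endolysosomal protein macrosialin, had 5296 counts (461 CPM) in the knockout sample and 306 (23.0 CPM) in the control sample (fold 20.02, 17.8 to 22.5). The 16 control counts of Dab2 are close to the table's lowest control count. Of the complement and protease receptors, C3ar1, the receptor of the C3a fragment, had 3640 counts in the knockout sample and 85 in the control sample (fold 49.5, 39.96 to 62.2). Plaur, the urokinase receptor, had 859 counts in the knockout sample and 58 in the control sample (fold 17.1, 13.1 to 22.8).

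The 4 Toll-like receptors among the listed members had between 246 and 607 counts in the knockout sample and between 22 and 70 in the control sample. Tlr13, which senses bacterial ribosomal RNA, had 499 counts in the knockout sample and 22 in the control sample (fold 26.2, 17.1 to 42.3). Tlr2, the lipoprotein receptor, had 410 counts in the knockout sample and 35 in the control sample. Tlr7, the sensor of single-stranded RNA, had 607 counts in the knockout sample and 70 in the control sample. Tlr4, the lipopolysaccharide receptor, had 246 counts in the knockout sample and 29 in the control sample, a fold of 9.81 (6.66 to 15.0). It was the least abundant listed member per length in the knockout library. Other genes of the pathway, further Toll-like receptors included, are no members and had a lower median: of 20 named, 16 had a row, 2 were higher by 2-fold or more and 0 lower by as much (median log2 ratio 0.31). That is 12.5% higher, near the 11.4% of all listed genes. The higher pair were Tlr3, a sensor of double-stranded RNA, at 6.79-fold (4.77 to 9.89), and Unc93b1, the chaperone of the endosomal receptors, at 2.14-fold (1.84 to 2.50). The other Toll-like receptors with a row, Tlr1 and Tlr6, which pair with Tlr2, lay within 2-fold. Tlr1 had 835 counts in the knockout sample and 774 in the control sample (fold 1.25, 1.13 to 1.38), and Tlr6 had 98 in the knockout sample and 75 in the control sample (fold 1.51, 1.11 to 2.07). Irak2, a kinase of the pathway, and Tirap, an adaptor, had log2 ratios of -0.45 and -0.19, and the shared adaptor Myd88 had 0.21.

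Kinases below these receptors were represented by Lyn, since Syk and Btk had no row. Lyn had 405 counts (35.2 CPM) in the knockout sample and 799 (60.1 CPM) in the control sample. With a log2 ratio of -0.76 it was the listed member furthest on the side of the control library, 1.71-fold lower in the knockout (1.51 to 1.93). In the wider list of ITAM and ITIM signalling genes, 17 of 20 had a row, 7 were higher by 2-fold or more and 0 lower by as much (median log2 ratio 0.54). The share higher was 41.2%, beside 11.4% of all listed genes. Pik3ap1, an adaptor of phosphoinositide signalling, was 14.7-fold higher (9.6 to 23.5). At the other end, Hcst, the DAP10 adaptor, and Malt1, a paracaspase that T cells use as well, had log2 ratios of -0.46 and -0.45.

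The NADPH oxidase, which makes superoxide in phagosomes, differed among its subunits. Cybb, its catalytic chain, had 2041 counts (178 CPM) in the knockout sample and 96 (7.22 CPM) in the control sample, a fold of 24.6 (20.04 to 30.5). Cyba, the membrane partner of Cybb, had 10337 counts (900 CPM) in the knockout sample and 8469 (637 CPM) in the control sample, a fold of 1.41 (1.37 to 1.45). The chains of this complex were thus unequally represented. Per length, Cyba was 28.3 times Cybb in the knockout (27.0 to 29.7) and 493 times in the control sample (403 to 610). Ncf1, a cytosolic organiser subunit, had 337 counts in the knockout sample and 109 in the control sample (fold 3.58, 2.87 to 4.48). Ncf4, another cytosolic subunit, had 1037 counts in the knockout sample and 1197 in the control sample, a fold of 1.002 whose interval (0.921 to 1.09) holds no difference; its log2 ratio of 0.0032 turned to -0.0023, -0.011 and -0.17 under relative log expression, upper-quartile and pan T cell marker scaling. Of 7 other oxidase genes, 4 had a row. The GTPases Rac1 and Rac2 had log2 ratios of 0.11 and -0.32, that of Rac1 becoming -0.06 under pan T cell marker scaling.

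Spi1 was the only listed member of the regulators. It had 838 counts (72.9 CPM) in the knockout sample and 218 (16.4 CPM) in the control sample, a fold of 4.45 (3.83 to 5.19). Its ratio was far below those of most receptors, and per length it was 0.885 times Cybb in the knockout (0.816 to 0.959) and 4.89 times in the control sample (3.83 to 6.29).

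Secreted and effector genes held the highest ratios of the listed members, those of Lyz2 and Slpi. Lyz2, lysozyme, had 5190 counts (452 CPM) in the knockout sample and 35 (2.63 CPM) in the control sample, a fold of 172 (123 to 247). Slpi, an inhibitor of leukocyte proteases, had 4612 counts (401 CPM) in the knockout sample and 46 (3.46 CPM) in the control sample, a fold of 116 (86.8 to 159). Intervals as wide as these come from the control counts. Mpeg1, a pore-forming protein of phagosomes, had 2114 counts in the knockout sample and 77 in the control sample (fold 31.8, 25.3 to 40.4). Tgfbi, a matrix protein, had 1030 counts in the knockout sample and 42 in the control sample, and Pld4, an endolysosomal exonuclease, had 273 in the knockout sample and 21 in the control sample. Arg1, which consumes arginine, had 1138 counts in the knockout sample and 100 in the control sample (fold 13.2, 10.7 to 16.3). Il1b, a cytokine gene, was least apart, with 1338 counts in the knockout sample and 337 in the control sample (fold 4.59, 4.07 to 5.19). Among the remaining myeloid genes, Aif1, which encodes the macrophage marker IBA1, had 380 counts in the knockout sample and 17 in the control sample. Lst1 had 421 counts in the knockout sample and 62 in the control sample (fold 7.86, 6.01 to 10.4).

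The MS4A family shows how a gene cluster was represented. Ms4a7 had 1825 counts in the knockout sample and 59 in the control sample (fold 35.8, 27.6 to 47.2). Ms4a6c had 1160 counts in the knockout sample and 108 in the control sample (fold 12.4, 10.2 to 15.3); exons of a gene on the opposite strand cover 53.1% of its exon length, so its counts are uncertain. Of the 16 Ms4a genes in this stretch of RefSeq's order, these members included, 8 had a row and all 8 were at least 2-fold higher, from 3.36-fold for Ms4a6b to 35.8-fold for Ms4a7. This cluster includes Ms4a4b, which T cells express and which was 4.21-fold higher.

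**Figure D2:**
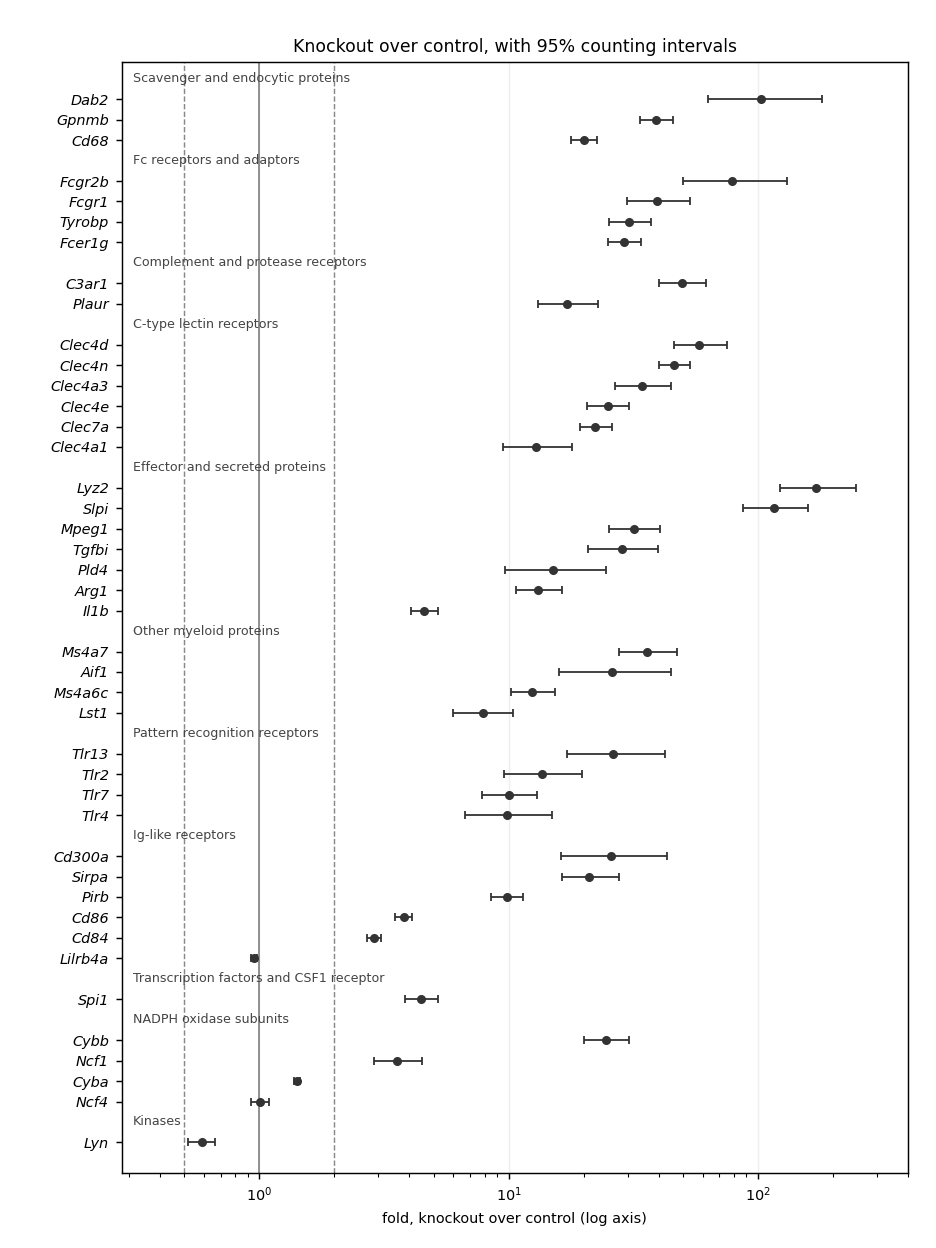
Fold of each listed member, knockout over control on a log axis, with its exact 95% counting interval; the solid line marks no difference and the dashed lines 2-fold in either direction. The points run from 0.586 for Lyn to 172 for Lyz2, and the widest bars belong to members with under 20 control counts, such as Dab2 and Fcgr2b.

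The ratios differed among the members by more than counting error. The middle of their log2 ratios ran from 3.08 to 4.94 (quartiles), and the 95% counting interval of only 11 of the 42 held the members' median fold of 21.7. Ratios between picked pairs of genes within a library restate these folds, since exon length cancels, and are no separate evidence. Per length, Lyz2 was 0.936 times Cd68 in the knockout (0.901 to 0.973) and 0.109 times in the control sample (0.0747 to 0.155). Gpnmb was 0.216 times Cd68 in the knockout (0.208 to 0.224) and 0.111 times in the control sample (0.0917 to 0.134). So the proportions among these genes were not the same in both libraries, apart from pairs such as Fcer1g and Tyrobp.

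Levels per length place the members in each library. Per kilobase of exon, 40 of the 42 lay above the median of the listed genes in the knockout library, against 12 in the control sample. The median percentile was 88.5 in the knockout sample and 19.8 in the control sample. Cyba (866 CPM per kilobase in the knockout sample, 613 in the control sample) and Lilrb4a (500.4 in the knockout sample, 526 in the control sample) were the most abundant members in both. Clec4n and Fcer1g came next in the knockout library, at 465 and 456 CPM per kilobase, where Tyrobp had 382, Cd68 367, Lyz2 343 and Slpi 340. In the control library the member after Cyba and Lilrb4a was Ncf4, at 44.6 CPM per kilobase, followed by Cd68 and Cd86, both at 18.3.

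**Figure D3:**
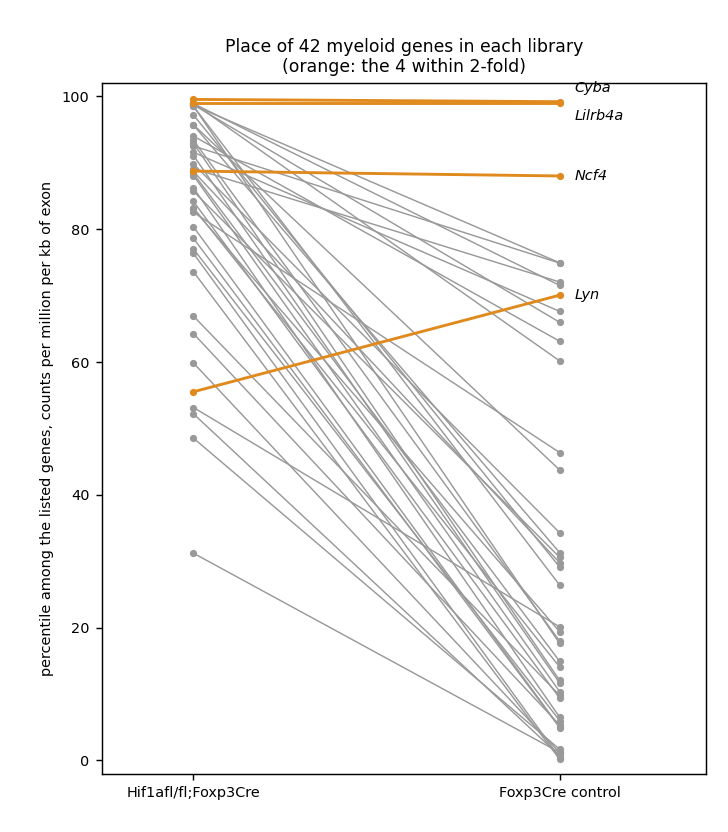
Percentile of each listed member among all listed genes, ranked by CPM per kilobase of exon, in the knockout library (left) and the control library (right). Cyba, Lilrb4a and Ncf4 (orange) keep a high place in both libraries, Lyn (orange) is lower in the knockout, and the other members (grey) are higher in the knockout, with a median percentile over all 42 of 88.5 in the knockout sample and 19.8 in the control sample.

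Summed, the listed members took 104621 counts in the knockout library, or 0.923% of the listed counts (exact binomial interval 0.917% to 0.928%). In the control library they took 30063 counts, or 0.223% (0.221% to 0.226%). The sum was 4.03-fold higher in the knockout (3.97 to 4.08). That sum rests on a few genes: without Lilrb4a, Cyba and Ncf4 it was 0.722% in the knockout sample and 0.0481% in the control sample, 14.6-fold higher (14.2 to 15.0). These 3 were chosen after their values were seen.

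Other genes of macrophages and monocytes, which are no members, lay mostly on the same side. Of 58 named, 29 had a row, 26 were higher by 2-fold or more, 2 lower by as much and 1 within 2-fold, with a median log2 ratio of 2.56. Over all listed genes, 11.4% were higher and 8.78% lower by as much. This list too was chosen with earlier results known. The floor lets in a gene with few control counts only when its knockout counts are high, so these counts do not bear on the members' result. Ccl6, a chemokine, and Cd36, a scavenger receptor, were 115-fold (86.6 to 156) and 122-fold (85.0 to 181) higher. Ctss, the protease cathepsin S, was abundant in both libraries, at 1849 CPM in the knockout sample and 200.0 CPM in the control sample. The 2 lower genes were Irf8, a transcription factor of monocytes and dendritic cells that was 2.63-fold lower (2.34 to 2.97), and Ccr2, a chemokine receptor of monocytes and some T cells that was 2.06-fold lower (1.95 to 2.16). Complement C1q, whose subunits C1qa, C1qb and C1qc are typical of tissue macrophages, had no row.

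Markers of further cell types were read in the same table. Of 15 dendritic cell markers, 12 had a row, 9 were higher by 2-fold or more and 1, Xcr1, was lower by as much, with a sum of 42377 counts in the knockout sample and 22455 in the control sample. H2-Ab1 and H2-Aa led them at 4.01-fold and 3.94-fold. Of the dendritic cell markers with a row, 75% were higher by 2-fold or more, beside 11.4% of all listed genes. Of 12 neutrophil markers 1 had a row, Mmp9, with 115 counts in the knockout sample and 172 in the control sample. Of 11 mast cell and eosinophil markers 1 had a row, Ccr3, with 212 and 1242 counts in the knockout and control samples. B cell markers (3 of 8) held 3364 counts in the knockout sample and 2008 in the control sample. Of these Ighm was 2.27-fold higher, whereas Igkc and Cd79b had folds of 0.827 and 0.8004. Natural killer cell markers (3 of 8) held 1275 counts in the knockout sample and 1469 in the control sample, a scaled fold of 1.004. Klrd1 was 9.75-fold higher (5.59 to 18.4), but its 14 control counts are the table's lowest. Nkg7 was 2.73-fold higher, and Gzma had a fold of 0.439. Erythroid and platelet markers (5 of 9) held 12641 counts in the knockout sample and 9254 in the control sample. Stromal markers (3 of 10), mostly Dpp4, held 2506 counts in the knockout sample and 305 in the control sample. Dpp4 gave 2255 of these in the knockout sample and 158 in the control sample (fold 16.5). Dcn was 3.47-fold higher, with 204 and 68 counts in the knockout and control samples, whereas Mfap5 had a fold of 0.688. Endothelial and mesothelial markers (3 of 10) held 1493 in the knockout sample and 696 in the control sample. Pecam1, with most of the control counts, was 1.42-fold higher, whereas Krt18 was 16.9-fold (9.87 to 31.5) and Kdr 15.5-fold higher (11.1 to 22.2). Krt18 also had only 14 control counts. Adipocyte markers (2 of 8) held 122 counts in the knockout sample and 1234 in the control sample. Pparg, which is also expressed by adipose Tregs, gave 48 of these in the knockout sample and 1182 in the control sample. It was 21.3-fold lower in the knockout (15.9 to 29.0), whereas Lipe was 1.65-fold higher (1.14 to 2.39). CD8 T cell markers (1 of 2) held 103 in the knockout sample and 141 in the control sample. The part of these cells in the members' ratios was not tested.

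**Figure D4:**
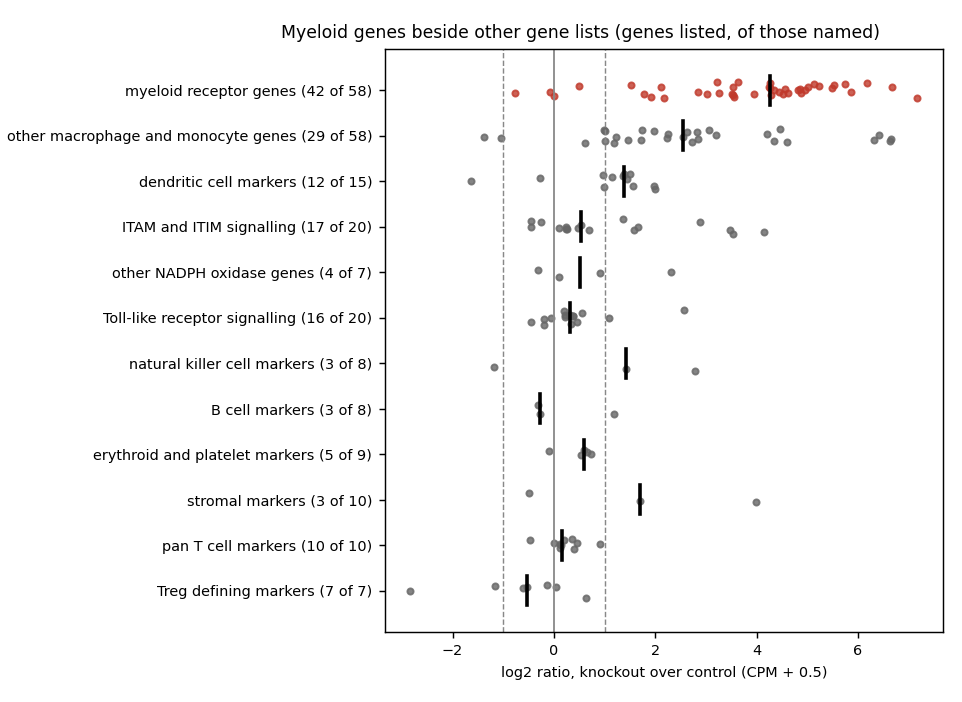
Log2 ratio, knockout over control on CPM plus 0.5, of each listed gene (points) in the myeloid genes described here (red) and in other lists (grey), with the median of each list as a black bar and dashed lines at 2-fold. The median is 4.26 for the myeloid genes, 2.56 for other macrophage and monocyte genes, 0.17 for pan T cell markers and -0.52 for Treg defining markers.

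Scaling choices moved these values little. When the pan T cell markers were set to a median log2 ratio of 0, the median of all listed genes moved by -0.17, and the members' median became 4.11 with 38 members still at least 2-fold higher. Under that scaling 940 listed genes were higher by 2-fold or more and 1231 lower by as much, beside 1170 and 897 with TMM.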

How the data were processed

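RNA was sequenced from sorted adipose Tregs, with 1 library per genotype. The submitters' processing notes name a build, mm8, and the tools HTSeq 0.6.1, TopHat2 2.0.12, Bowtie2 2.2.3 and edgeR; annotation, strand setting and filter: not given in the sources used here. Raw, unscaled read counts of 10219 genes were deposited. Beside them the deposited table has the mean of both counts and their signed ratio, both scores here, and edgeR's log2 fold change, log2 CPM, likelihood ratio score, p-value and adjusted p-value, per the file headers. The deposited p-values were not used.

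Columns were matched to genotypes through the library names in the sample descriptions. Counts were scaled by TMM (edgeR 4.0.16, R 4.3.3) to counts per 1000000 (CPM). A fold is the ratio of scaled counts, with an exact conditional binomial 95% interval (scipy 1.17.1) for counting error alone, which takes no account of PCR duplicates. Log2 ratios use CPM plus 0.5. With 1 library per genotype there is no spread between replicates and no test, so genes were called by size, at least 2-fold. The interval code was tested on simulated data. Exon lengths come from GENCODE M21, found for 10200 genes, and upstream sequences from RefSeq on GRCm38.p6; no coordinates of the deposited counts are given because the build differs. The members and all lists were chosen with earlier results of these data known. Every member with a row is named, and of other lists up to 2 genes at each end, with the genes that check the labels; Ctss, Myd88, the C1q genes, Lilr4b, Necap1, Fcgr4, Tlr1, Tlr6, Ms4a4b and Ms4a6b were chosen after their values were seen. Some genes that this rule names are not reported here. Alternative scalings, pseudocounts, level filters and folds were tried.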

Additional observations from a re-analysis of the deposited data

How the results depend on the processing

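Of the 42 listed members, 38 were at least 2-fold higher under total-count, relative log expression, upper-quartile and pan T cell marker scaling, with TMM factors computed without macrophage genes, with a filter of 5 CPM, with the authors' log2 fold change, at a fold of 1.5 and when the whole counting interval had to pass 2-fold; at a fold of 4 the number was 35. The number of lower members was 0 in each of these except at a fold of 1.5, where it was 1, Lyn. Over all listed genes, the share higher was 20.7% at a fold of 1.5, 3.74% at 4 and 7.9% for the whole interval. Under the remaining settings it ran from 9.2% (pan T cell marker scaling) to 12.1% (total-count scaling). The share lower by as much was 19%, 1.85% and 6.05% in the first 3 cases, and 8.27% (total-count) to 12% (pan T cell marker) in the remaining settings. The members' median log2 ratio of 4.26 ran from 4.01 with a pseudocount of 1 to 4.44 with none. Summed over members, the fold of 4.03 became 14.6 without Lilrb4a, Cyba and Ncf4, an alternative chosen after seeing the data. Of 378 alternative log2 ratios of single members, 18 left the member's counting interval, 11 of them under pan T cell marker scaling, and 3, all of Ncf4, changed sign.

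No paired analysis was possible because each genotype has 1 library, so leaving out a library could not be tried either. Depth limits the members with under 100 control counts, 23 of the 42, and 16 members have no row.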
